A study of Mus musculus with 8 samples.

Results

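Prickle2, Dst, Orc5, Mad1l1, 5830417I10Rik and Elf1 are genes of mouse NIH3T3 cells, each of which has a polyadenylation site (PAS) in an intron as well as in its 3′-most exon. These 6 genes were chosen by their ratio of 3′-most-exon to internal PAS use, as genes with the lowest or highest ratio in a comparison with nontreated cells, out of 1501 genes with both kinds of PAS and 10690 genes in all. NIH3T3 is an established mouse fibroblast line. Cells were nontreated (NT), kept in 250 μM sodium arsenite for 1 h (AS), or given arsenite-free medium after that treatment, with 4 h (RC4) or 8 h (RC8) of recovery. No other treatment or genetic change is given for any of the 4 groups. Each condition has 1 QuantSeq FWD library, a 3′ end method whose reads start upstream of the PAS, so no difference between conditions has a replicate check and no P value is given. The intervals below are 95% intervals of read counting only, and since reads carry no molecular identifiers, they are not separate molecules. AS, RC4 and RC8 were each set against the same NT library.

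Cleavage and polyadenylation in an intron ends a transcript before its downstream exons. The product carries a shortened coding region or none, and its synthesis competes with splicing of the intron and with transcription to the last exon. The U1 snRNP, which binds 5′ splice sites, and the kinase CDK12 are known to hold back intronic polyadenylation, whereas the cleavage factors PCF11 and CSTF2 promote use of weak sites. Intronic PASs often lie in long introns near the gene start, and a genome also carries many retroposed mRNA copies and repeats whose A-rich ends resemble a PAS.

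All 7 internal PASs of the 6 genes were intronic, a class that made up 78.8% of the 2025 internal PASs of genes with both kinds. In the mm9 genome with the GENCODE vM1 annotation, the intronic PAS of Prickle2 (chromosome 6, minus strand, gene at 92320886 to 92656139) was in intron 2, which is 246.7 kb long, with 128 of 2703 coding nt upstream. That of Dst (chromosome 1, plus strand, 33965125 to 34365495) was in intron 32 with 19.4% of 22179 coding nt upstream. The Elf1 site (chromosome 14, plus strand, 79881001 to 79982283) was 47.5 kb into intron 1, upstream of all coding sequence. Orc5 (chromosome 5, minus strand, 21992303 to 22056247) had 2 PASs in its intron 6, after 52.4% of 1305 coding nt. The Mad1l1 site (chromosome 5, minus strand, 140484643 to 140797506) was in an intron 6 as well, after 31.5% of 2151 coding nt. The gene 5830417I10Rik (chromosome 3, plus strand, 88579138 to 88630250) is annotated as a pseudogene without coding sequence, and its PAS was 293 nt into intron 7, on the strand opposite to Syt11. These places hold for 1 transcript per gene, that with the longest coding sequence among those with the PAS in an intron. Sites were intronic in 2 of 4 annotated transcripts for Prickle2, 5 of 8 for Dst and 4 of 6 for Orc5. For Mad1l1 and 5830417I10Rik it was 2 of 6 each, and for Elf1 4 of 4.

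**Figure D1:**
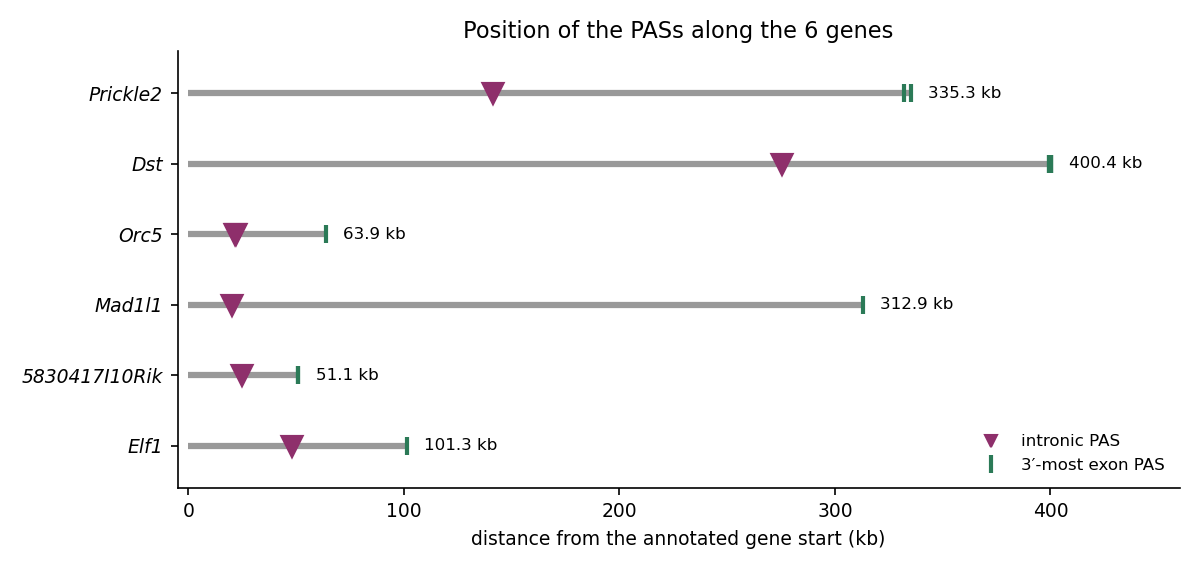
Position of every listed PAS along the 6 genes, as distance from the annotated gene start in kb, with triangles for intronic PASs and bars for PASs of the 3′-most exon. The intronic PASs lie between 20.2 kb (Mad1l1) and 275.5 kb (Dst) from the gene start.

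The 30 bases that end at each intronic PAS are shown because they differ in kind between the genes. They are written 5′ to 3′ on the strand of the gene, read from the mm9 genome. Capitals mark the polyadenylation signal AATAAA or ATTAAA where the 30 bases hold one, and otherwise a run of at least 6 A.
Prickle2, chr6:92514699-92514728: atcggcaATTAAAgctgttgttgatctgaa
Dst, chr1:34240573-34240602: gAATAAAgttgggtttgcttatttgtcata
Orc5 upstream PAS, chr5:22034371-22034400: gtttctacgggagaaggttaaagtcaatgg
Orc5 downstream PAS, chr5:22034042-22034071: aaaagtcatttcactctatAAAAAAAAAAA
Mad1l1, chr5:140777321-140777350: tctcgaaaaaccgagggAAAAAAAAAAAAA
5830417I10Rik, chr3:88603904-88603933: tggagagcttcacatgggcagccacagaaa
Elf1, chr14:79928955-79928984: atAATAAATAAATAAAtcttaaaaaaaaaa
Within 40 nt upstream, 4 of the 7 sites held AATAAA or ATTAAA (the downstream Orc5 site holds it before the 30 bases shown), against 43.8% of all 2025 internal PASs and 52.4% of 2931 PASs of the 3′-most exon in the same genes. The 20 bases around the PAS held a run of 6 A, or 7 A in 10 bases, at the downstream Orc5 site, at Mad1l1 and at Elf1, and at 31.3% of all internal PASs and 15% of those of the 3′-most exon. The motifs were searched on the strand of the gene only, and the matches are a description of these letters.

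Several of these intronic sites lie in sequence that other genes share. Of the 300 nt upstream of the Prickle2 site, all 300 matched the mRNA of Rbm17, which encodes a splicing factor, at 96.0% identity. The upstream Orc5 site lies inside Gm15421, annotated as a pseudogene on the same strand (chr5:22034139-22034537), and 163 nt upstream of it matched the mRNA of Rpl22l1, a ribosomal protein gene, at 100% identity. The downstream Orc5 site follows the end of Gm15421, is also the listed PAS of Gm15421 itself, and matched Rpl22l1 at 99.6% over 224 nt. The 5830417I10Rik site had a copy of its whole 300 nt window in an intron of Gon4l, 80.2 kb further along the chromosome (chr3:88684090-88684389), with 99.3% identity and no difference in the last 30 bases. The Mad1l1 window had 9418 other matches in the genome of at least 90% identity over at least 100 nt. For Dst and Elf1 no other match of that size was found. With the same thresholds but against protein-coding mRNAs on the strand of the gene only, 22.6% of all 2025 internal PASs matched a gene elsewhere. By that measure 4 of the 7 sites had a match, those of Prickle2 and Mad1l1 and both Orc5 sites. Of the 50-nt stretches in the 300 nt windows, 32.3% were unique in the genome for 5830417I10Rik and 33.1% for the downstream Orc5 site, and 8.54% of all internal PASs had less than 50% unique. The other 5 intronic sites had 81.7% (upstream Orc5) to 100% (Dst and Elf1) unique stretches. The mapping settings of the study kept reads with several genomic matches, up to a set number of loci, and how such reads were then assigned to genes and PASs is not given in the sources used here.

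Reads on genes numbered 22.4 M to 23 M per library. Of 9 listed genes from a list of 12 arsenite-inducible genes, 5, 8 and 6 were at least 2-fold higher in AS, RC4 and RC8, respectively, beside 0.622%, 3.69% and 2.97% of all genes, and none was 2-fold lower. All 10 fibroblast markers of a list were present, including Col1a1 and Vim. Of 10 markers of other cell types, Tubb3 alone was listed, at 2.32 to 15.8 CPM (reads per 1000000 reads on genes). Its level was lowest in AS and highest in RC8, and its part in the results was not tested. For all genes, the share with a level change of at least 2-fold was 3.85% for AS, 17.1% for RC4 and 6.50% for RC8. Fewer cells of a type and less RNA per cell cannot be told apart in these libraries.

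The relative expression difference of the internal PAS (REDi) is the log2 ratio of the 3′-most-exon PAS proportion over the internal PAS proportion, treated over NT. It is taken for the internal PAS and the 3′-most-exon PAS with the largest change in proportion. A negative REDi means that the intronic isoform was gained and a positive one that it was lost. For ranks, a gene needed 200 reads or more per library, and neither PAS of the pair could be under 5% in either library. Under these minimums, REDi was at or below −1 in 9.49% of 1043 genes in AS, 23.7% of 1020 genes in RC4 and 8.64% of 1018 genes in RC8. It was at or above 1 in 4.41%, 6.18% and 13.2% of these genes, respectively. Since the 6 genes were chosen from these same contrasts, their REDi values are given as a description.

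In AS, 5830417I10Rik had the lowest REDi, −2.95 ± 0.20 (counting error), next to Snhg3 at −2.77, and Mad1l1 had the highest, 2.62 ± 0.39, next to Fmnl2 at 2.48. In RC4, Prickle2 was highest at 3.85 ± 0.38, with Tmem245 next at 2.32, whereas the lowest gene was Taf6 at −4.19, which is not among the 6. In RC8, Dst was lowest at −3.28 ± 0.25, next to Ube4a at −2.88, and Orc5 was highest at 3.11 ± 0.22, next to Prl2c5 at 3.06. Each of these gaps to the next gene was within the 2 counting errors, except that of Prickle2. Elf1 was extreme in no comparison. Its REDi of −2.0 ± 0.31 in AS was the 14th lowest of 1043. In RC4 and RC8 its values of −2.68 ± 0.32 and −2.25 ± 0.32 came from 189 and 191 reads, below the minimum, and with no minimum they ranked 40th lowest of 1334 and 17th lowest of 1288. Of the 16 REDi values that the tables give for the 6 genes, 12 met both minimums. The remaining ones were Prickle2 in AS (195 reads, REDi of 0.46), Elf1 in RC4 and RC8, and 5830417I10Rik in RC8, where the intronic PAS was at 2.64% (REDi of 2.54).

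**Figure D2:**
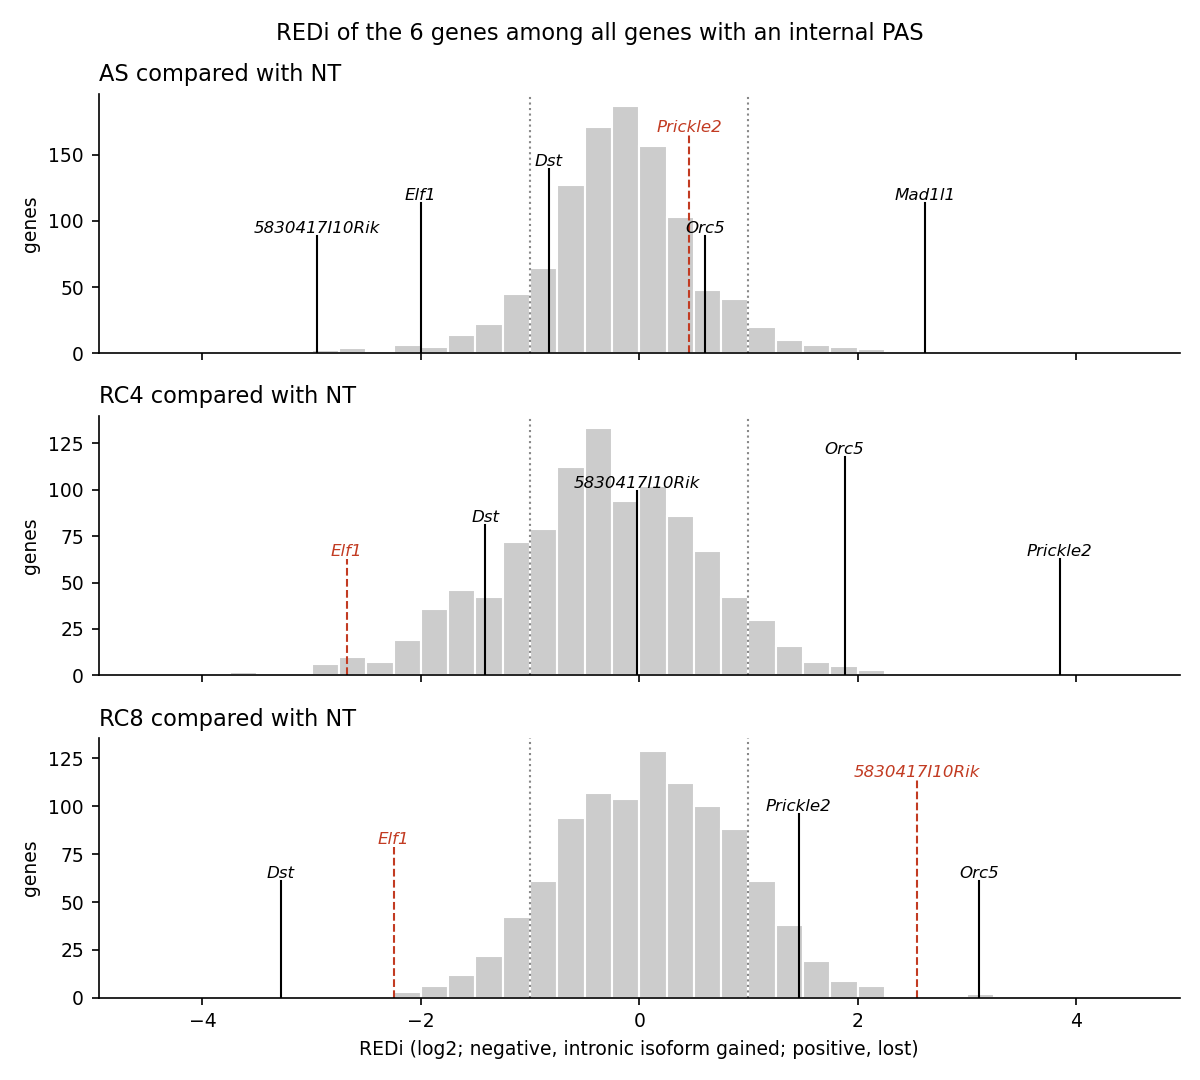
Histograms of REDi (log2, bins of equal width) over all genes that met the minimums in AS, RC4 and RC8, with the 6 genes as vertical lines, dashed and red where a gene did not meet them, and dotted lines at −1 and 1. The 6 genes fall on both sides in each comparison, from −3.28 (Dst in RC8) to 3.85 (Prickle2 in RC4).

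Prickle2 encodes a LIM domain protein of the planar cell polarity pathway. Its intronic PAS took 38.7% of 287 reads in NT, 31.4% of 195 in AS, 6.60% of 479 in RC4 and 17.6% of 314 in RC8. The share was thus high in NT and AS, whose 95% intervals (33.2% to 44.4% and 25.3% to 38.2%) overlapped, and low in RC4 (4.70% to 9.19%) and RC8 (13.8% to 22.2%). The intronic isoform measured 4.92 CPM in NT, against 2.73, 1.38 and 2.40 in AS, RC4 and RC8. Isoforms of the 3′-most exon measured 7.79, 5.96, 19.5 and 11.2, so the 2 kinds moved apart in RC4, the former 3.57-fold lower and the latter 2.49-fold higher than in NT. Most of the gain in proportion in the 3′-most exon in RC4 was at the upstream of its 2 PASs (position 92323861), which was at 15.4% in NT and 37.9% in RC4. The level at that site was 4.03-fold higher, against 1.97-fold at the downstream PAS (position 92320906). With the downstream PAS alone as partner, REDi in RC4 was 2.82. The upstream PAS was not listed in the AS table.

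Because the Prickle2 site lies in a copy of Rbm17 sequence, the level of Rbm17 is given beside it. Rbm17 was at 267 CPM in NT and 247, 132 and 256 in AS, RC4 and RC8, respectively, which is a log2 change of −1.01 ± 0.03 in RC4. The intronic Prickle2 isoform changed by −0.85 ± 0.23, −1.84 ± 0.29 and −1.03 ± 0.24 in AS, RC4 and RC8. Both were lowest in RC4, but Rbm17 differed by no more than 0.11 from NT in AS and RC8. Of the stretches of 50 nt in the Prickle2 window, 96.4% were unique, and the part of Rbm17 reads in the value was not tested.

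Dst encodes dystonin, a spectraplakin that links actin, microtubules and intermediate filaments. It had 59.4 CPM in NT, and in AS, RC4 and RC8 16.8, 61.7 and 61.9, so AS stood 3.54-fold below NT while the recovered libraries were within 4% of it. The share of its intronic PAS was 7.34% in NT, against 7.58%, 12.7% and 17.4% in AS, RC4 and RC8. NT and AS overlapped in their intervals, RC4 (11.1% to 14.5%) and RC8 (15.5% to 19.5%) lay above NT (6.06% to 8.86%), and RC8 lay above RC4. In CPM, the intronic isoform was at 4.36, 1.27, 7.83 and 10.8. Hence in AS the intronic and the 3′-most-exon isoforms of Dst were lower by nearly the same factor, 3.43-fold and 3.56-fold. In RC8 the intronic isoform was 2.46-fold higher than in NT while the 3′-most-exon isoforms together were at 0.926 of NT.

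The extreme REDi of Dst in RC8 came from the choice of its partner in the 3′-most exon. That exon had 6 listed PASs, and the one at position 34365433 was at 34.0% of reads in NT in the AS and RC4 tables but at 21.9% in the RC8 table. The RC8 table alone lists a further PAS at position 34365566, with 10.3% in NT and 12.8% in RC8. At the former site AS, RC4 and RC8 had shares of 32.8%, 22.1% and 5.33%. The level there was 3.96-fold lower in RC8 than in NT, whereas the sites at 34365034, 34365253 and 34365566 were at 0.907 to 1.29 of NT. Summing all PASs of each kind gave a REDi of −0.05 ± 0.32 in AS, −0.88 ± 0.19 in RC4 and −1.41 ± 0.18 in RC8. On that summed scale Dst was the 16th lowest gene in RC8, and Dnajc12 was lowest at −2.03.

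Orc5 encodes a subunit of the origin recognition complex, which marks sites of replication start. The larger part of its reads was intronic in all 4 libraries, with 80.0% in NT and 73.4%, 78.1% and 52.6% in AS, RC4 and RC8, respectively. RC8 thus stood apart from the other 3. In CPM, the intronic sites together measured 41.5 in NT, and in AS, RC4 and RC8 28.6, 20.4 and 16.1, while the 3′-most-exon PAS had 10.4, 10.4, 5.71 and 14.5. Relative to NT, the intronic sum in RC8 was 2.57-fold lower and the 3′-most-exon isoform 1.39-fold higher.

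The intronic sites of Orc5 did not change alike. The upstream site inside Gm15421 was at 18.6 CPM in NT, against 12.2, 2.76 and 3.0 in AS, RC4 and RC8, a level 6.73-fold and 6.19-fold lower in the recovered cells. The downstream site, which is also the PAS of Gm15421, was at 22.9, 16.4, 17.6 and 13.1. Its share of the gene's reads was 44.2% in NT and 67.5% in RC4, and REDi in RC4 had opposite signs for the 2 sites, 1.88 ± 0.25 with the upstream and −0.49 ± 0.18 with the downstream one. In RC8 both gave positive values, 3.11 ± 0.22 and 1.28 ± 0.16. Gm15421 itself was at 135 CPM in NT and 134, 117 and 116 in AS, RC4 and RC8, respectively, more than all Orc5 reads together (51.8 in NT). Rpl22l1 was at 617, 648, 542 and 502. Gm15421 and Rpl22l1 changed by no more than 0.30 on the log2 scale in any comparison. The upstream Orc5 site changed by −0.60 ± 0.11, −2.75 ± 0.19 and −2.63 ± 0.19 in AS, RC4 and RC8. The downstream site changed by −0.49 ± 0.10, −0.38 ± 0.10 and −0.81 ± 0.10. How reads were divided between Orc5 and Gm15421 is not given in the sources used here. The part of Gm15421 or Rpl22l1 reads in these values was not tested.

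Mad1l1 encodes MAD1, which brings MAD2 to unattached kinetochores in the spindle checkpoint. Its intronic PAS took 34.4% of 276 reads in NT (29.0% to 40.2%) and 7.87% of 249 in AS (5.13% to 11.9%), and the intervals did not overlap. The intronic isoform was at 4.20 CPM in NT and 0.873 in AS, 4.81-fold lower. The isoform of the 3′-most exon was at 8.02 and 10.2, 1.27-fold higher. The RC4 and RC8 tables do not list the intronic PAS, so it has no value there. With NT proportions averaged over the tables, where the unlisted PAS counted as 0, REDi in AS was 0.60 in place of 2.62. The NT library has 192 reads for Mad1l1 in those tables, 84 fewer than in the AS table, where about 95 NT reads belonged to the intronic PAS. The 3′-most-exon isoform, the only one listed in recovery, was at 6.20 CPM in RC4 and 9.04 in RC8. The intronic site ends a run of A and is followed by 20 bases of which 15 are A. It lies in sequence with many genomic matches, as shown above, while 97.2% of the 50-nt stretches in its window were unique. The part of that sequence in the value was not tested.

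Elf1 encodes an ETS family transcription factor. The share of its intronic PAS was 11.7% of 360 reads in NT, 34.6% of 238 in AS, 45.9% of 189 in RC4 and 38.5% of 191 in RC8. All 3 treated libraries lay above NT (8.78% to 15.4%), and their own intervals, from 28.8% to 53.0%, overlapped one another. The intronic isoform was at 1.86 CPM in NT, and in AS, RC4 and RC8 3.67, 3.79 and 3.2, or 1.97-fold, 2.03-fold and 1.71-fold above NT. The 3′-most-exon isoform was at 14.1, 6.94, 4.47 and 5.11, with RC4 3.16-fold below NT. Elf1 was the only one of the 6 genes whose intronic share was at least 2-fold above NT in AS, RC4 and RC8. It is also the site with 3 overlapping AATAAA motifs and a following tract of A, and all of its 50-nt stretches were unique.

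The pseudogene 5830417I10Rik was the only one of the 6 genes whose intronic share was more than 2-fold above NT in one comparison and more than 2-fold below it in another. The intronic PAS took 10.1% of 886 reads in NT, 46.1% of 788 in AS, 9.95% of 407 in RC4 and 2.64% of 687 in RC8. AS (42.6% to 49.6%) lay far above NT (8.28% to 12.3%), RC4 (7.41% to 13.2%) overlapped NT, and RC8 (1.68% to 4.13%) lay below it. In CPM, the intronic isoform measured 3.96 in NT, against 16.2, 1.77 and 0.789 in AS, RC4 and RC8. The AS value was 4.09-fold above NT and the RC8 value 5.03-fold below it, a span of 20.5-fold between AS and RC8. Isoforms of the 3′-most exon together were at 35.3, 19.0, 16 and 29.1 CPM. In RC4 both kinds of isoform were lower than in NT by the same factor of about 2.2, the intronic one 2.25-fold and the others 2.22-fold.

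**Figure D3:**
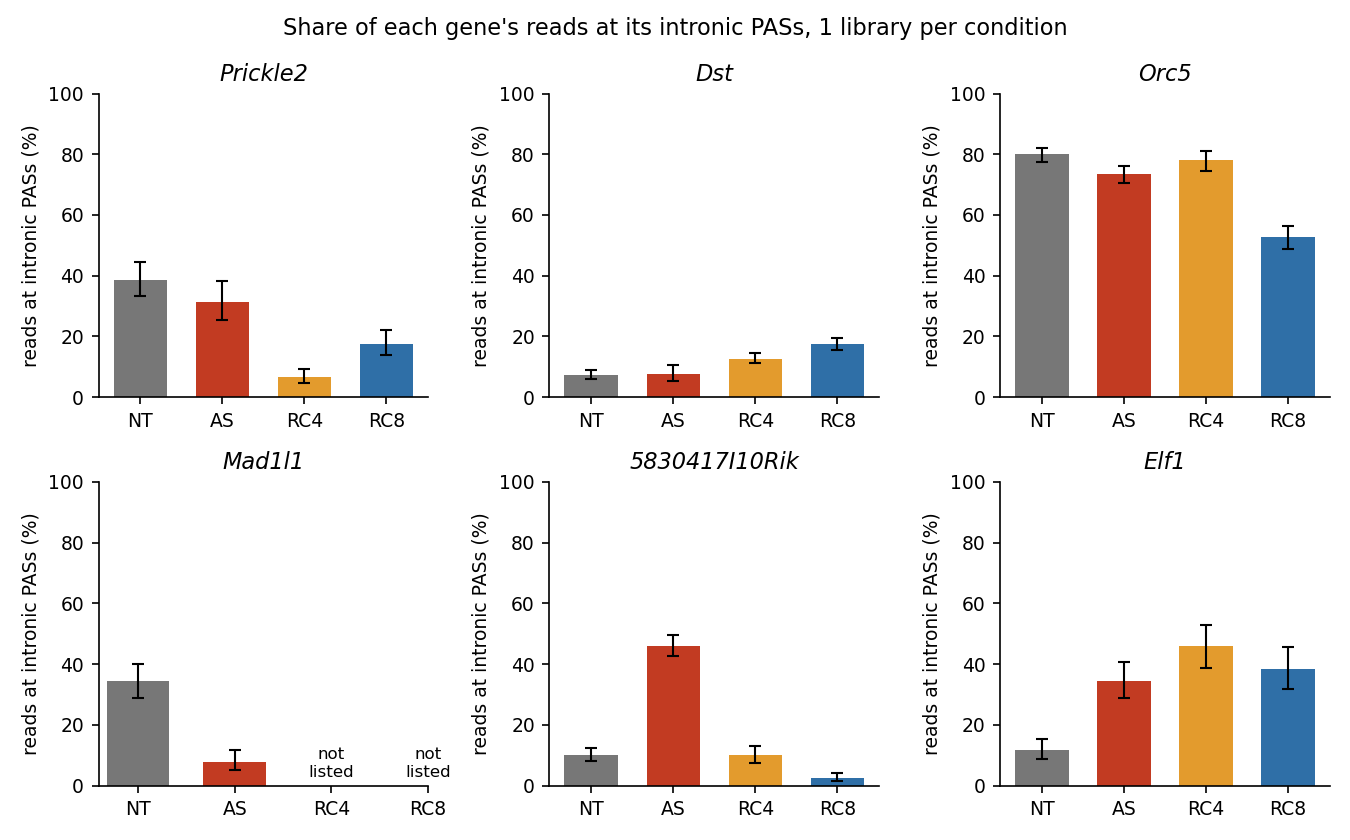
Share of each gene's reads at its intronic PASs (percent, bars) in NT, AS, RC4 and RC8, 1 library each, with 95% Wilson intervals of counting as error bars. The share is above NT in AS, RC4 and RC8 for Elf1 and in AS alone for 5830417I10Rik (46.1%).

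The copy of the 5830417I10Rik site in Gon4l is listed as an intronic PAS of that gene in the AS table, at position 88684389. There it took 4.69% of 864 reads in NT and 30.7% of 624 reads in AS, and its level was 1.79 and 8.54 CPM. The log2 change at the Gon4l site was 2.25 ± 0.25 and that at the 5830417I10Rik site 2.03 ± 0.17, a difference within the counting errors. The REDi of Gon4l in AS was −3.17 ± 0.26, below that of any gene that met the minimums, and Gon4l was left out of the ranks because its intronic PAS was under 5% in NT. The 3′-most-exon isoform of Gon4l was at 36.5 and 19.3 CPM, 1.89-fold lower in AS. The RC4 and RC8 tables list no intronic PAS of Gon4l. The values of Gon4l were looked up after those of 5830417I10Rik had been seen. With windows of 99.3% identity, whether the 2 intronic sites share reads was not tested. Syt11, on the opposite strand, was at 6.07 CPM in NT and 6.46 in AS.

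**Figure D4:**
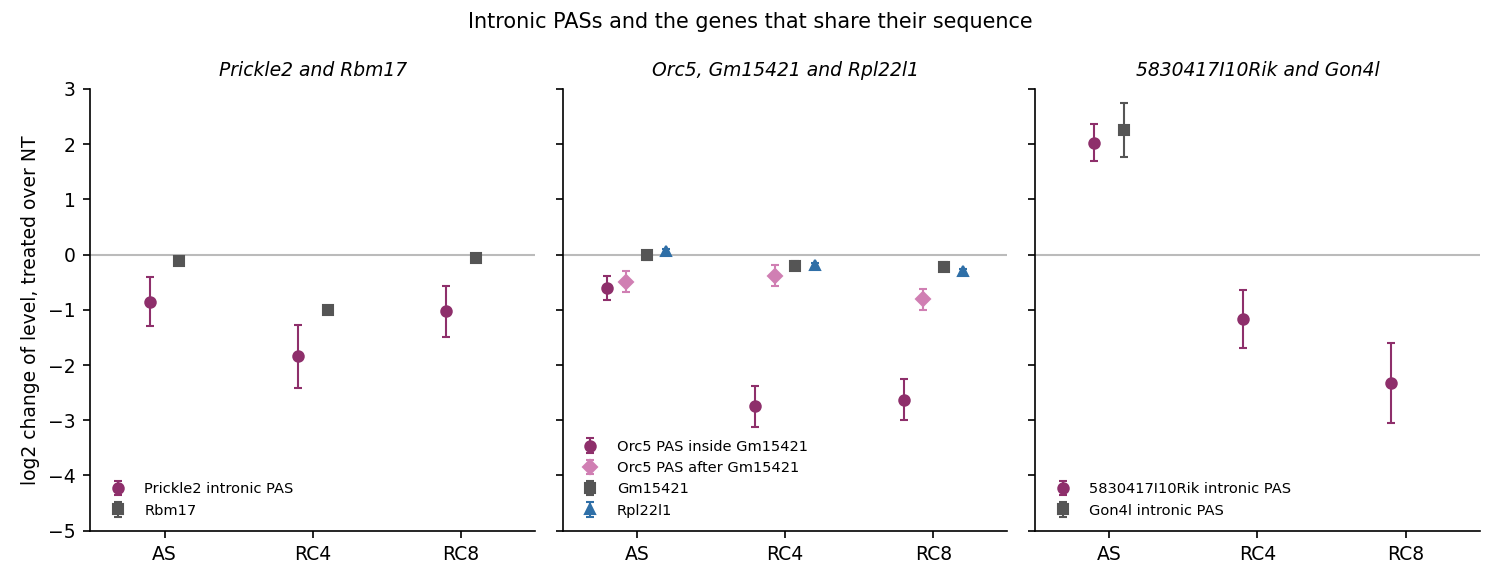
Log2 change of level, treated over NT, of the intronic PASs of Prickle2, Orc5 and 5830417I10Rik in AS, RC4 and RC8, beside genes or PASs that share their sequence, with bars of 1.96 counting errors. The intronic PASs of 5830417I10Rik and Gon4l are both above 0 in AS (2.03 and 2.25). In RC4 the upstream and downstream Orc5 PASs are at −2.75 and −0.38, with Gm15421 at −0.20.

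Across the 6 genes, the intronic and the 3′-most-exon isoforms moved in opposite directions by more than 1.96 counting errors in Prickle2 in RC4 and RC8, Mad1l1 and 5830417I10Rik in AS, Orc5 in RC8 and Elf1 in all 3 comparisons. Both kinds were lower than in NT by that measure in Prickle2 and Dst in AS, in Orc5 in RC4, and in 5830417I10Rik in RC4 and RC8. The 6 genes were chosen by the ratio of these kinds of isoform. Their directions are therefore a description, and no share over all genes is given beside them. At the level of the whole gene, Dst in AS and 5830417I10Rik in RC4 (2.22-fold lower) were the only cases of at least a 2-fold change with scaling by total reads, and Orc5 in RC4 was 1.99-fold lower. Scaling by the median of ratios took 5830417I10Rik in RC4 to −0.84 on the log2 scale and Prickle2 in RC4 to 1.01, so that the former was no longer a 2-fold change and the latter was one. The median log2 change of the 6 genes was −0.48, −0.71 and −0.17 in AS, RC4 and RC8, against −0.04, −0.30 and 0.01 over all genes.

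**Figure D5:**
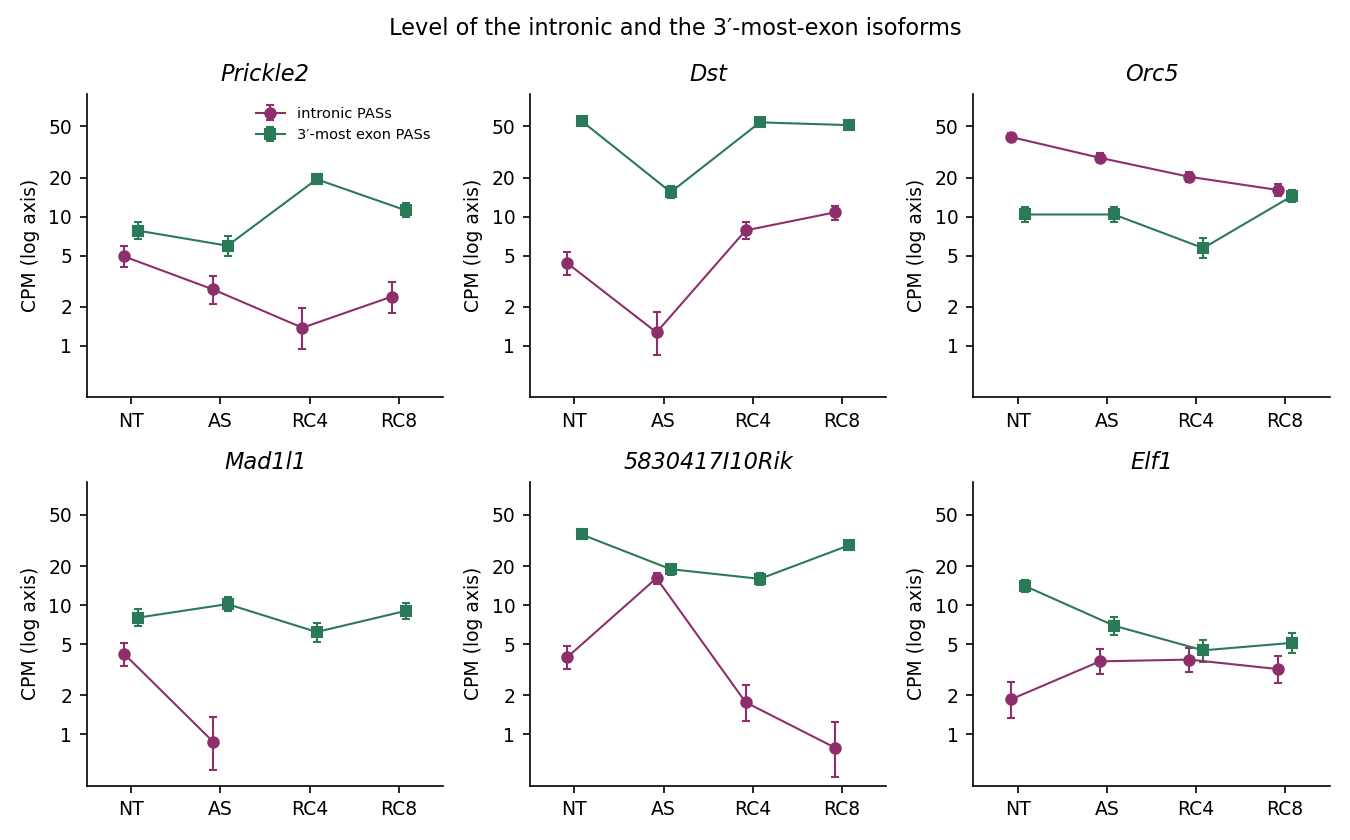
Level in CPM (log axis) of the intronic (circles) and the 3′-most-exon isoforms (squares) of the 6 genes in NT, AS, RC4 and RC8, with exact Poisson 95% intervals, where lines join values of 1 isoform. The intronic isoform of 5830417I10Rik is at 16.2 in AS and below 4 in the other libraries, and the Mad1l1 intronic isoform has values in NT and AS only.

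Among 794 genes that met the minimums in all 3 comparisons, likeness was measured as the Euclidean distance between the REDi values in AS, RC4 and RC8. Among the closest to Elf1 were Utrn (distance 1.34) and Cgnl1 (1.42). Closest to 5830417I10Rik were Adamtsl5 (1.28, with REDi values of −2.54, −0.98 and 1.79), Brwd1 (1.93) and Btaf1 (2.02). For Dst they were Sipa1l1 (1.54), Pank2 (1.67) and Alg14 (1.67), for Orc5 Prrc2c (1.56), Psmd9 (1.63) and Ptchd4 (1.63), and for Prickle2 Tsc22d2 (2.07), Hnrnph3 (2.23) and Psmd9 (2.26). The distances for Prickle2 were the longest, and Mad1l1 has no value in RC4 and RC8. The members' own vectors include values below the minimums in Elf1, 5830417I10Rik and Prickle2.

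Factors of intronic polyadenylation and relatives of these genes, with none for 5830417I10Rik, were taken from lists. The lists were chosen with earlier results of these data known. Of 27 factors of intronic polyadenylation and its suppression, all listed, Cpsf2, a subunit of the cleavage and polyadenylation specificity factor, was 2-fold lower in AS (log2 change −1.15) and Wdr33, which binds AATAAA, in RC4 (−1.09), and none changed 2-fold in RC8. Of all genes, 3.22%, 13.4% and 3.53% were at least 2-fold lower in AS, RC4 and RC8. With scaling by the median of ratios Wdr33 was at −0.78, under 2-fold. These 2 genes lie outside the rule for named genes and are given to complete the count. The median change of the list was −0.15, −0.39 and −0.01, against the medians over all genes above. The minimums for REDi were met by 7, 7 and 8 genes of the list, respectively. REDi was at or below −1 in 1, 1 and 0 of them and at or above 1 in 2, 2 and 1, beside the shares over all genes given above. The values farthest from 0 were those of Cdk12, Pcf11, Cstf2 and Cstf3. Cdk12 stood at −1.99 ± 0.22 in RC4, Pcf11 at 1.37 ± 0.29 in AS, Cstf2 at 1.29 ± 0.34 in RC4 and Cstf3 at 1.2 ± 0.15 in RC8.

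Of 9 listed genes related to Mad1l1 or the spindle checkpoint, 8 were listed in RC4. Of these, 4 were at least 2-fold lower in RC4 and none higher, beside 13.4% lower of all genes. The list median there was −0.98, against −0.30 over all genes, and the 4 genes were also 2-fold lower with scaling by the median of ratios. They were Bub1b (59.5 to 9.04 CPM), Cdc20 (138 to 44.7), Bub1 (28.8 to 10.4) and Mad2l1 (65.7 to 24.3), kinases, target and partner of the checkpoint. Bub1 was also lower in RC8, and in AS none of the 9 changed 2-fold. Of 7 replication licensing genes related to Orc5, the loading factor Cdc6 (56.6 to 15.4) and Orc3 (15.9 to 7.43) were 2-fold lower in RC4, beside the same 13.4% of all genes, and none changed 2-fold in AS or RC8. With scaling by the median of ratios Orc3 was at −0.80 in RC4, under 2-fold. The minimums for REDi were met by 2, 1 and 2 of the 7 genes in AS, RC4 and RC8. Orc3 had a REDi of 1.32 ± 0.31 in AS and −0.58 ± 0.31 in RC8. Orc4 had 0.78 ± 0.25, −1.51 ± 0.24 and 0.63 ± 0.24 in AS, RC4 and RC8, so neither kept its sign. Of all genes that met the minimums, 4.41% were at or above 1 in AS and 23.7% at or below −1 in RC4.

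Of 10 listed ETS factors related to Elf1, 1 was 2-fold lower in AS (Elk4), 2 in RC4 and 2 in RC8, and none was higher. These counts stand beside 3.22%, 13.4% and 3.53% of all genes, and with scaling by the median of ratios 1 was lower in RC4. Etv6 was among the lower ones in both recovered libraries, at 59.7 CPM in NT and 23.2 in RC4, and Ets2 was lower in RC8 (54.1 to 20.8). Elf2, the only relative that met the minimums for REDi, had −0.68 ± 0.27 in AS, −2.63 ± 0.29 in RC4 and −1.17 ± 0.30 in RC8. In AS, Elf1 was at −2.0. Of all genes that met the minimums, 23.7% were at or below −1 in RC4 and 8.64% in RC8. Macf1, the spectraplakin most like Dst, was at 179 CPM in NT and 62.1 in AS, a log2 change of −1.53 beside −1.83 for Dst. It was 1 of 2 listed relatives, and the other changed by −0.82 in AS, under 2-fold. Of all genes, 3.22% were at least 2-fold lower in AS. Of 9 listed genes related to Prickle2 or planar cell polarity, the receptor Fzd3 alone changed 2-fold with scaling by total reads. It rose from 16.6 to 36.8 CPM in RC8, where 2.97% of all genes were 2-fold higher. With scaling by the median of ratios, 3 of the 9 were 2-fold higher in RC4, namely Tes (log2 change 1.21), Dvl2 (1.11) and Fzd3 (1.09), of which Tes and Dvl2 are named after their values were seen. With scaling by total reads, 3.69% of all genes and 0 of the 9 were 2-fold higher in RC4. The share of all genes under the median of ratios is not given, so that count of 3 has no background beside it. Vangl1, a core protein of planar cell polarity, had a REDi of −1.14 ± 0.34 in AS, −1.97 ± 0.35 in RC4 and −0.86 ± 0.32 in RC8. It was 1 of 2 relatives of Prickle2 that met the minimums. The other had 0.81 ± 0.29, 0.04 ± 0.27 and 0.66 ± 0.24 in AS, RC4 and RC8.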

How the data were processed

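The values come from QuantSeq FWD libraries of NIH3T3 cells, 1 per condition. The authors trimmed reads with bbmap, mapped them with STAR 2.5.2a to mm9, reads with several matches included, and applied MAAPER to PASs from PolyA_DB v3, on genes with at least 50 reads and PASs at 5% or more. The authors deposited raw read counts of each gene in 2 columns for every library, which were added as 1 library. Over genes with reads in both columns, these agreed within sampling noise (chi-square per degree of freedom 0.974 to 1.027). Between 43 and 93 genes per library had no reads in 1 of the columns and were left out of that comparison. None of the chosen genes was among them. The proportion of a gene's reads at each PAS was deposited as a fraction per library. Deposited columns of the authors' own comparisons (P values, RLD and RED scores) were not used. The QuantSeq REV libraries were not analysed here.

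Reads of an isoform were the gene's reads times the fraction, and levels are in CPM, reads per 1000000 reads on the genes of a table. Proportions have Wilson intervals and levels exact Poisson intervals. The counting error of a log2 ratio is the root of the sum of 1 over each read number, on the log2 scale. With 1 library per condition no test between conditions was made. The calculation of REDi and its counting error was checked on simulated reads of known REDi, with 1 PAS of each kind per gene. That check covers the arithmetic only. The assignment of reads to PASs and the choice of the compared pair were not part of it. Coordinates and sequences are from the NCBIM37 (mm9) genome with GENCODE vM1. Copies were searched with BLAST 2.17.0, at 90% identity or more over at least 100 nt. Calculations used Python 3.11.15 with pandas 2.3.3 and NumPy 2.4.6.

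The 6 genes, the gene lists and the alternatives were chosen with earlier results of these data known. The text names the 6 genes, the genes ranking next to an extreme one, the 3 genes most like each in REDi (1 of those for Elf1 is not reported here), and up to 4 genes per list that changed 2-fold in level or REDi. Alternatives were summed PASs, averaged NT proportions, a pseudocount of 1 read, scaling by the median of ratios, each count column alone, other minimums and, added after seeing the data, the same pair of PASs in all comparisons and the median-of-ratios scaling of the gene lists.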

Additional observations from a re-analysis of the deposited data

Results flagged for a closer look

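The REDi of 5830417I10Rik was −2.95 in AS and 2.54 in RC8, opposite directions under the same reference library. The difference between the 2 values was not tested, since each condition has 1 library. The value in RC8 rests on about 18 reads at the intronic PAS, and the 300 nt upstream of that PAS are 99.3% identical to a stretch of Gon4l.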

How the results depend on the processing

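No paired analysis was possible because each condition has 1 library. The values depended most on which PASs were compared. With summed PASs, REDi was −0.05, −0.88 and −1.41 for Dst in AS, RC4 and RC8, and 0.16 and 1.84 for Orc5 in RC4 and RC8. With the same pair of PASs in all comparisons, Dst was at 0.26, −0.56 and −0.95, Prickle2 in RC4 at 2.82, and Orc5 at −0.49 in RC4, which is a reversed sign, and 1.28 in RC8. With NT proportions averaged over tables, Prickle2 in RC8 was at 2.40 and Mad1l1 in AS at 0.60, since a PAS absent from a table counted as 0 there. The other 50 of 63 recomputed REDi values stayed within 1.96 counting errors, all those of Elf1 and 5830417I10Rik among them. Genes with REDi at or below −1 numbered 63 in AS and 55 in RC8 with summed PASs, in place of 99 and 88. Those at or above 1 numbered 34 in RC4 and 71 in RC8 with summed PASs, in place of 63 and 134, and 101, 104 and 218 in AS, RC4 and RC8 with no minimum proportion, in place of 46, 63 and 134. Scaling by the median of ratios raised each log2 change of level in RC4 by 0.30, so that 5830417I10Rik stood at −0.84 there, under 2-fold, and Prickle2 at 1.01. Of the genes in the lists, that scaling took Wdr33, Orc3 and Erf under 2-fold and Tes, Dvl2 and Fzd3 over it in RC4. No log2 change of level of 1 or more turned its sign under any of its alternatives. The 2 count columns taken alone gave log2 changes of gene level for Elf1 of −0.32 and −0.85 in AS. In RC4 they gave −0.63 and −1.28 for Elf1, and −0.93 and −1.06 for Orc5. Elf1 and Orc5 were thus 2-fold lower in RC4 in 1 column only. Dst was at 0.21 and −0.09 in RC4, and at 0.20 and −0.09 in RC8. Apart from these Elf1 and Dst values, gene levels in each column stayed within 1.96 counting errors. Counting error is the only error known, and intronic isoforms with under 50 reads limit the precision of Elf1 in NT, Dst and Mad1l1 in AS, Prickle2 in RC4 and 5830417I10Rik in RC4 and RC8.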
